A study of Mus musculus with 8 samples.

Results

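The accessible regions at promoters that belong to long noncoding RNA (lncRNA) genes alone were described in mouse medullary thymic epithelial cells (mTECs). A consensus region was counted here when its centre lay from 1000 bases upstream to 100 bases downstream of the start of a transcript of a lincRNA, antisense, processed_transcript or bidirectional_promoter_lncRNA gene, and more than 5000 bases from every protein-coding start. Starts were those of GENCODE M21 on the mm10 genome, and only the 19 autosomes were used. By this rule 750 of the 55917 autosomal regions were members, or 1.34% (95% Wilson interval 1.25 to 1.44), of 57124 regions in the whole set. They lay at the promoters of 737 genes.

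The regions came from ATAC-seq, in which a transposase cuts accessible DNA and adds sequencing adapters, of mTECs sorted by flow cytometry from the thymus of wild-type mice. The labels give 8 samples in 4 groups of 2 biological replicates. The groups were Tspan8neg MHCIIlow, Tspan8neg MHCIIhigh, Tspan8pos MHCIIlow and Tspan8pos MHCIIhigh. Tspan8 is a surface antigen whose expression marks a subset of mTECs, and MHC class II rises as these cells mature. In the authors' description it falls again in late mTECs, so that MHCIIlow cells are not all immature. No group carried a deletion or a treatment. Peaks were merged over all samples into a single region set, and the read counts in the table carry names that match no label. Every value below therefore belongs to the 4 groups together, no comparison between groups was made, and sequencing depth was not used here. The intervals reflect counting error alone, since neither regions nor genes replicate the experiment.

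LncRNAs are transcripts that are spliced and capped much like messenger RNAs but carry no long reading frame. Many are made at low levels and in few cell types, and some are hosts that release small nucleolar RNAs or microRNAs from their introns. Most promoters of broadly used genes lie in CpG islands, stretches in which the CpG dinucleotide has not been lost, whereas promoters and enhancers used in few cell types often lack them. mTECs are known for transcribing many genes that are otherwise restricted to other tissues.

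The cell type of the label was checked on promoters of marker genes, as presence or absence of a region. All 8 markers of mTECs and thymic epithelium had a promoter region (Epcam, Krt5, Krt8, Foxn1, Aire, Cd80, H2-Ab1 and Cldn4). None of 6 markers of thymocytes and other blood cells had one, nor had any of 4 markers of fibroblasts and endothelium. Of 3 markers of cortical thymic epithelium, Ly75 and Prss16 had a promoter region and Psmb11 had none.

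The sequences of 6 members are shown because they hold the widest region of 4 groups of known lncRNAs, the widest region of all and the region with the highest CpG ratio among those of at least 200 bases. Each run is the central 200 bases of the region in the GRCm38 reference, the assembly behind mm10, read 5′ to 3′ along the strand of the nearest lncRNA start. Capitals mark exact matches, on either strand, to the short motifs that are spelled out, or for NF-kB and CTCF only named, further on. Where matches touch or overlap, the capitals run together.

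The imprinted group is represented by Kcnq1ot1, at chr7:143296524-143296723 on the minus strand.
Kcnq1ot1: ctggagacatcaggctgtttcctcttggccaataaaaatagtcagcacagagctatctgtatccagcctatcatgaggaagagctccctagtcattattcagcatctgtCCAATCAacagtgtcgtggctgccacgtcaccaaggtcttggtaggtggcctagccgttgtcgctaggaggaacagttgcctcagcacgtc
The hosts of small nucleolar RNAs are represented by Snhg8, at chr3:123508416-123508615 on the minus strand.
Snhg8: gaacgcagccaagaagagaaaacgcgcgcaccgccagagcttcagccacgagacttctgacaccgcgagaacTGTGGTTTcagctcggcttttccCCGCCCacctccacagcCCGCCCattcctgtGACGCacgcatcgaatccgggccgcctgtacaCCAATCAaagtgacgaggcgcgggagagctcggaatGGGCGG
The microRNA hosts are represented by Dleu2, whose region it shares with Gm27017, at chr14:61648555-61648754 on the minus strand.
Dleu2: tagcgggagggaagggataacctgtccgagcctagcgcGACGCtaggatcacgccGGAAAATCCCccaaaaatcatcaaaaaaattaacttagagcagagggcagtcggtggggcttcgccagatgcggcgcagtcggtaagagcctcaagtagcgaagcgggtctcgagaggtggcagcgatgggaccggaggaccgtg
The growth and stress group is represented by Chaserr, named 1810026B05Rik in the annotation, at chr7:73558412-73558611 on the minus strand.
Chaserr: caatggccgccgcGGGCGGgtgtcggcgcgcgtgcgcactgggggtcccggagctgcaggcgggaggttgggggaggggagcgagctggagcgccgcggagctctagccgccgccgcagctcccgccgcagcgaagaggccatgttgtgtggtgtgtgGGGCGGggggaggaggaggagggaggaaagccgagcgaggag
The widest region of all lay at Gm26917, and its centre is at chr17:39844992-39845191 on the plus strand.
Gm26917: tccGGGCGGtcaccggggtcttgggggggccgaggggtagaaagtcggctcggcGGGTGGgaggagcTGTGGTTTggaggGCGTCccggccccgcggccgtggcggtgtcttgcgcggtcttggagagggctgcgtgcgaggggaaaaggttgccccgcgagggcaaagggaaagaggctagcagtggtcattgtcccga
The highest CpG ratio was found at 6530409C15Rik, at chr6:28215456-28215655 on the plus strand.
6530409C15Rik: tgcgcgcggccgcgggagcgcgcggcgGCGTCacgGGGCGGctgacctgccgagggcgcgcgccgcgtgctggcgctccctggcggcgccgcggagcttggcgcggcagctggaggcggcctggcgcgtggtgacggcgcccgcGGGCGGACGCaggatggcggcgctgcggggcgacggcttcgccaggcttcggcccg

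These runs differ in how many CpG they hold. The run of Kcnq1ot1 had 5 CpG in 200 bases. The runs of Dleu2, Gm26917, Snhg8 and Chaserr had 18, 20, 21 and 24. The run of 6530409C15Rik had 42, at a GC content of 83.5%. None of the 6 runs overlapped an annotated coding exon. The only match in the run of Kcnq1ot1 was to the CCAAT letters of NFY.

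The members sat close to the start, and in width they lay between coding promoter regions and distal regions. Their median width was 247 bases (quartiles 135 and 452.5, range 67 to 3953). Regions narrower than 200 bases made up 40.7% of them, compared with 12.8% at protein-coding promoters and 59.3% of regions more than 5000 bases from any start. Of the members, 20.5% reached 500 bases. The centre lay a median of 120 bases upstream of the nearest lncRNA start (quartiles 336 and 21 bases upstream). It was within 100 bases of a start in 355 members, or 47.3%, and within 250 bases in 514 members. The region itself covered the start in 399 of 750 members, or 53.2% (95% Wilson interval 49.6 to 56.7). The rule bounds these distances, so they describe the members and say nothing of the strength of a promoter.

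**Figure D1:**
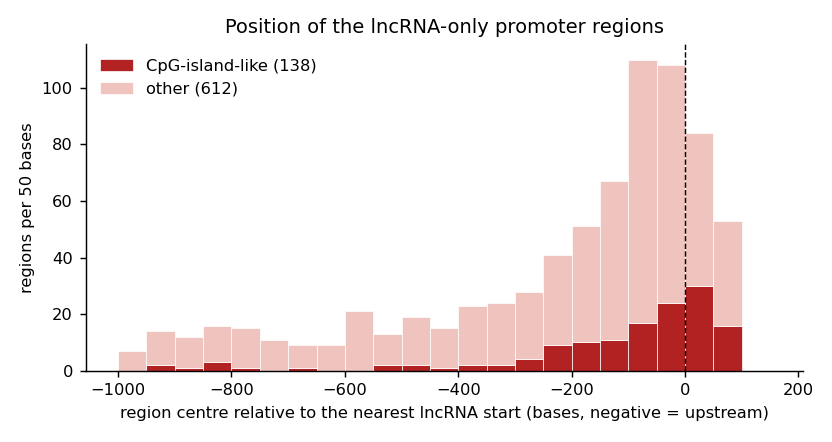
Number of lncRNA-only promoter regions per 50 bases (y axis) by the distance of the region centre from the nearest lncRNA start in bases (x axis, negative upstream). The fullest bins lie within 100 bases upstream of the start, and the 138 CpG-island-like regions (dark) are concentrated around it, among 612 others (pale).

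Most members lay apart from coding genes. The median distance to the nearest protein-coding start was 39342 bases, and the farthest was 1617669 bases away. At the inner edge of the rule were the regions of Mir142hg, 2310075C17Rik and 4933439K11Rik, at 5020, 5103 and 5138 bases. The first ones outside it lay 4931, 4845 and 4842 bases from a coding start, at AA465934, Gm49782 and Gm15050. By position, 609 members (81.2%) were outside protein-coding genes, 134 (17.9%) were within a coding gene on the opposite strand and 7 were within one on the same strand. A coding exon was overlapped by 40 members, or 5.33%, and an lncRNA exon by 423, or 56.4%.

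Among protein-coding genes, 10327 of 20807 on the autosomes had a promoter region, or 49.6%. The share was lower for lncRNA genes. By the same window, 1750 of all 9065 autosomal genes of the 4 lncRNA types had a region at a promoter, or 19.3% (95% Wilson interval 18.5 to 20.1). The number of transcript starts per gene was not matched between coding and lncRNA genes. Of 6732 autosomal lncRNA genes with a start more than 5000 bases from coding starts, 734 had a member region, or 10.9% (95% Wilson interval 10.2 to 11.7). The share was 7.01% where the region had to overlap the start and 6.65% with regions of at least 200 bases. The other 3 member genes, Mir142hg among them, had no start beyond that distance. Genes whose starts all lay within 5000 bases of a coding start had a region at a promoter in 995 of 2333 cases, or 42.6%. These shares were not tested against each other, since genes and regions are not replicates.

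The share differed with the annotation of the gene. Among processed_transcript genes 80 of 423 had a member region, or 18.9% (95% Wilson interval 15.5 to 22.9). Among lincRNA genes it was 492 of 4595, or 10.7% (9.85 to 11.6), and among antisense genes 160 of 1708, or 9.37% (8.08 to 10.8). Genes that carry a name of their own had a member region in 55 of 277 cases, or 19.9% (15.6 to 24.95). For genes known only as Gm models the share was 9.44%, for Riken clones 13.6%, and for genes with clone-based names 12.2%. Gene size did not separate the sets, as the median length was 7762 bases in genes with a member region and 7525 in the 5998 without, with a median of 3 exons in both. The nearest coding gene had a promoter region of its own for 60.4% (56.8 to 63.8) of lncRNA genes with a member region and for 57.1% (55.8 to 58.4) of those without.

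In base composition the members stood between coding promoters and distal regions. Their median GC content was 54.4% (quartiles 50.2 and 60.3), compared with 65.3% in 10335 regions at protein-coding promoters and 50.9% in 31706 regions more than 5000 bases from any start. The GC content of the autosomes is 41.9%. The CpG observed to expected ratio had a median of 0.378 in the members, 0.789 at coding promoters and 0.227 in distal regions. The median width was 512 bases at coding promoters and 166 in distal regions, on either side of the 247 of the members. Another 12732 regions lay within 5000 bases of a start of any gene and in no promoter set. Their median width was 215 bases, their GC content 56.1% and their CpG ratio 0.381. The place between coding promoters and distal regions was thus not particular to the members. The 394 regions at lncRNA promoters within 5000 bases of a coding start had a median width of 433.5 bases, a GC content of 65.3% and a CpG ratio of 0.768. In their composition those regions were thus nearer to coding promoters than to the members. They were also close in position, at a median of 509.5 bases from a coding start (quartiles 189 and 1302.5). Whether this closeness accounts for the likeness was not tested.

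**Figure D2:**
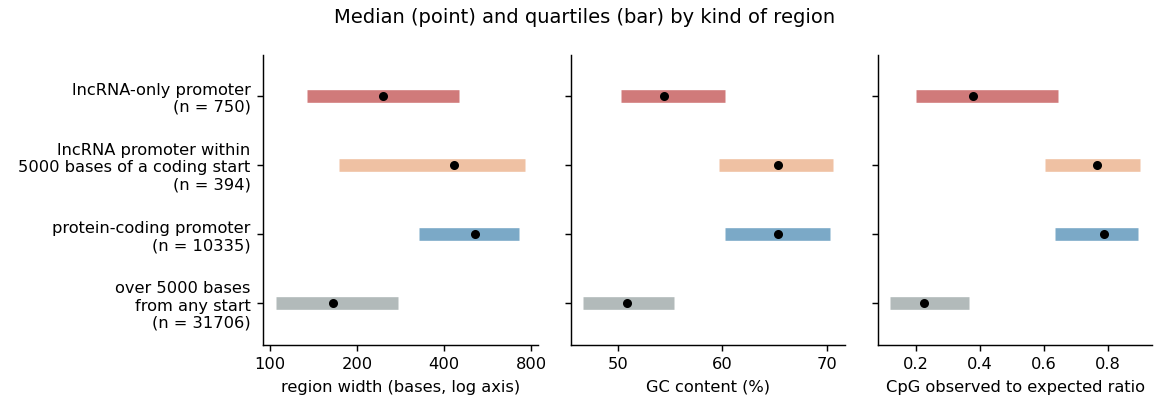
Median (point) and quartiles (bar) of region width in bases (log axis), GC content in percent and CpG observed to expected ratio, for 4 kinds of region named on the y axis with their number. The 750 lncRNA-only promoter regions have medians between those of coding promoters and of distal regions in each panel.

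The order of the medians was seen on nearly every autosome. The members' median width was below that of coding promoters on 19 of 19 autosomes and above that of distal regions on 18. Their median GC content lay between those of the other sets on 19 of 19, from 51.2% to 58.2%. Their CpG ratio was below that of coding promoters on 19 and above that of distal regions on 18 autosomes.

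CpG-island-like composition was defined as a width of at least 200 bases, a GC content above 50% and a CpG ratio above 0.6. It was found in 138 of 750 members, or 18.4% (95% Wilson interval 15.8 to 21.3). At coding promoters the share was 72.9% (72.1 to 73.8), at lncRNA promoters near coding starts 59.9% (55.0 to 64.6), and in distal regions 2.19% (2.03 to 2.35). In the 12732 other regions within 5000 bases of a start it was 25.1% (24.4 to 25.9), above the members' interval. The members' share is thus not read as a trait particular to them. In a fixed window of 300 bases at the centre, which does not depend on region width, 171 members (22.8%) were rich in CpG by the same limits of GC and ratio. The corresponding share at coding promoters was 76.4%, in the 12732 other regions within 5000 bases of a start 30.2%, and in distal regions 3.19%. At 6979 lncRNA starts with no region it was 3.31%, in windows centred on the start itself. The 138 members had a median width of 550 bases and the other 612 a median of 200.5 bases.

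**Figure D3:**
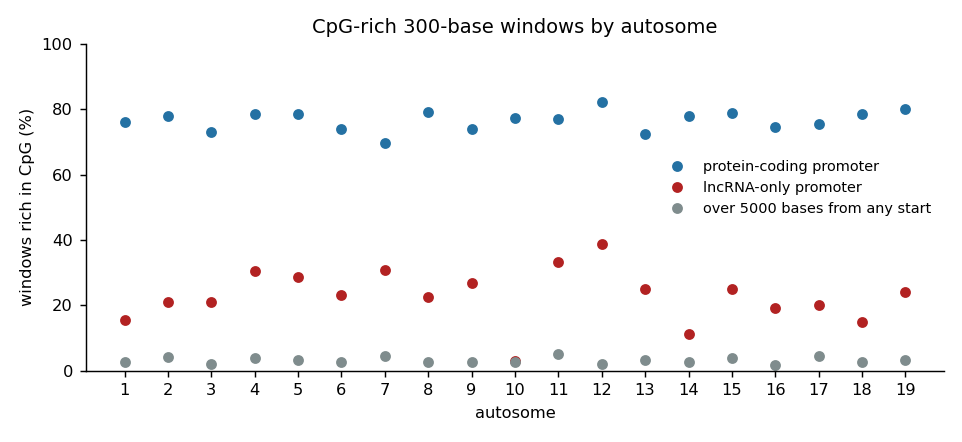
Share of 300-base windows rich in CpG, in percent (y axis), on each of the 19 autosomes (x axis) for regions at coding promoters, lncRNA-only promoter regions and distal regions. The members range from 2.86% to 38.7% and lie between the other sets on 19 of 19 autosomes.

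Within the members the CpG-island-like share differed with the annotation. It was 37.9% (28.5 to 48.4) of 87 regions at processed_transcript genes, 16.4% (13.4 to 19.9) of 495 at lincRNA genes and 13.8% (9.36 to 19.8) of 167 at antisense genes. For regions at genes with a name of their own it was 39.1% (28.1 to 51.3) of 64, and for Gm models 13.6% (10.7 to 17.2) of 433. Regions that covered the start were CpG-island-like in 28.8% (24.6 to 33.5) of 399 cases, and those beside the start in 6.55% (4.41 to 9.64) of 351. The former were also wider, with a median of 374 bases compared with 162. The share was 34.6% (27.0 to 43.0) where the centre lay 1 to 100 bases downstream of the start and 7.87% (4.33 to 13.9) where it lay 500 to 1000 bases upstream. The median widths of these were 392 and 173 bases. By distance from coding genes the CpG-island-like share was 21.7% (16.8 to 27.6) of the 221 members within 20000 bases. It was 12.6% (8.50 to 18.4) of the 174 beyond 100000 bases, and the intervals overlapped.

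**Figure D4:**
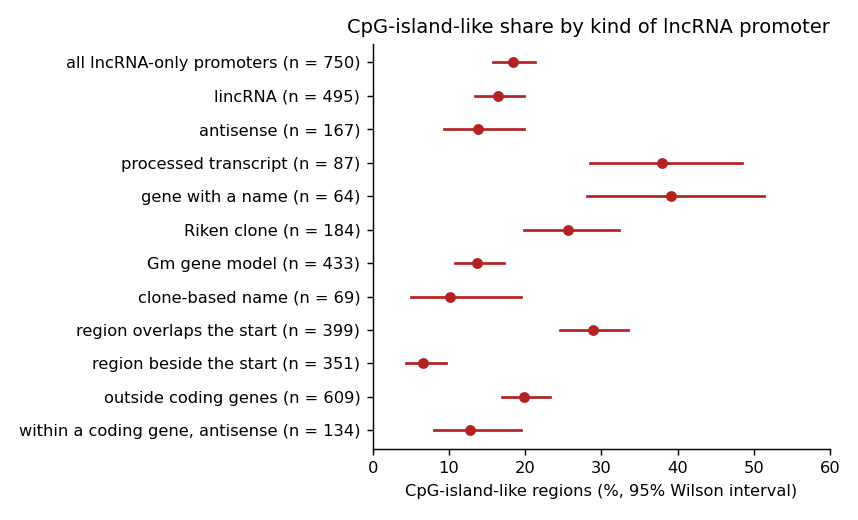
Share of CpG-island-like regions in percent (x axis) with 95% Wilson intervals (bars) for all 750 lncRNA-only promoter regions and for the subsets named on the y axis. Regions of processed_transcript genes, of named genes and those that cover the start lie to the right of all members.

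Known lncRNAs were read in groups by their function. Over all groups 56 genes had a start far enough from coding genes to be eligible, and 27 of these had a member region, or 48.2% (95% Wilson interval 35.7 to 61.0), beside the 10.9% of all eligible genes. With Mir142hg, whose start lies nearer, the groups held 28 member genes and 36 member regions. Of these regions 20 were CpG-island-like, or 55.6% (39.6 to 70.5), compared with 16.5% (14.0 to 19.4) of the other 714 members. The groups hold the best known lncRNAs, which were chosen for their names, so the shares describe them and were not tested.

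The nuclear body lncRNAs were both members. Neat1, the scaffold of paraspeckles, had a region of 738 bases, with a GC content of 59.3% and a CpG ratio of 0.662. Its centre lay 84 bases downstream of the start of Frmd8os, an antisense gene whose start lies in the same region. Malat1, an abundant RNA of nuclear speckles, had a region of 137 bases with its centre 3 bases past the start, and another of 604 bases with its centre 841 bases upstream. The CpG ratios of these were 0.741 and 0.851.

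Hosts of small nucleolar RNAs were members in 8 of 9 eligible cases, with a median width of 439.5 bases. These genes are transcribed broadly, and the RNAs in their introns guide the modification of ribosomal RNA. Snhg8 had the widest region with 848 bases, followed by Snhg5 with 565, Snhg16 (1810032O08Rik in the annotation) with 550, Snhg15 with 447, Epb41l4aos with 432, Snhg6 with 392, Snhg12 with 348 and Snhg20 with 293. Their CpG ratios ran from 0.796 at Snhg16 to 1.10 at Snhg5. All 8 met the CpG-island-like definition, and the sequence of Snhg8 shows this with its 21 CpG and 3 GC boxes. Snhg17 was eligible and had no region. A further 7 hosts, Snhg1, Snhg3, Snhg9, Snhg10, Snhg18, Gas5 and Zfas1, had a promoter region that lay near a coding start and fell outside the rule.

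MicroRNA hosts held both kinds of region. Of 12 host genes, 6 were members, with 11 member regions between them. Mir17hg, the host of the cluster of miR-17 and miR-92a, had a region of 748 bases with its centre 944 bases before the start. Its GC content of 82.6% was the highest of all members. Dleu2, the host of miR-15a and miR-16, had regions of 1200 and 739 bases at separate starts, with CpG ratios of 1.01 and 0.853. Mir155hg, the host of the immune regulator miR-155, had a region of 696 bases with a ratio of 0.995 and its centre 7 bases past the start. Mir22hg had regions of 651 and 156 bases, with ratios of 0.641 and 0.544. The list also held Mirt1 and Mirt2, which are not microRNA hosts, and of these Mirt1 had a member region of 393 bases with a ratio of 0.335 and Mirt2 had no region.

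The regions of Mir142hg and Mir99ahg were narrower than the widest regions of the other member hosts. Mir142hg hosts miR-142, which is known for its expression in blood cells, and its region was 149 bases wide with a ratio of 0.472. Mir99ahg had 4 member regions at different starts, of 284, 146, 262 and 232 bases, the most of any gene. Their ratios were between 0.395 and 0.670. The hosts without a region were Dnm3os, Mir124-2hg, Mir124a-1hg, Mir133a-1hg, Mir670hg and Mir9-3hg. The microRNAs of several of these, such as miR-124, miR-9 and miR-133a, are known from neurons and muscle.

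Of the imprinted lncRNAs, which are transcribed from the allele of a single parent, Kcnq1ot1 and Airn were members. Both are antisense to the coding gene in which they start. The region of Kcnq1ot1 was 336 bases wide with a GC content of 54.2% and a CpG ratio of 0.487. The region of Airn was 196 bases wide with a ratio of 0.331. H19, Meg3, Rian, Mirg, Snhg14 and Nctc1 were eligible and had no region at a promoter. Nespas had a region that lay 2441 bases from a coding start and so fell outside the rule.

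Developmental lncRNAs beside transcription factor genes were the group with 0 members. Of 10 eligible genes, 8 had no promoter region, namely Hotair, Fendrr, Sox2ot, Rmst, Dlx6os1, Dlx1as, Pantr2 and Hand2os1. The other 2, Pantr1 and Vax2os, had a region only near a coding start. Over all eligible lncRNA genes the share with a member region was 10.9%, and 10 genes are too few to set 0 members apart from it. Hoxaas2 and Zeb2os, which start close to coding genes, had a region as well.

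Growth and stress lncRNAs had member regions in 9 genes of 14 that were eligible. Chaserr, which regulates its neighbour Chd2, had the widest with 880 bases and a CpG ratio of 0.986. Dancr had 624 bases, Lockd, a neighbour of Cdkn1b, had 592, and Oip5os1 (1700020I14Rik) had 490. Pvt1, the neighbour of Myc, had a region of 140 bases with a ratio of 1.01, and Norad (2900097C17Rik) had 113 bases with a ratio of 0.889. The narrow width kept both out of the CpG-island-like class. Trp53cor1, known as a target of p53 beside Cdkn1a, had 235 bases with a ratio of 0.348.

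Lncpint, another p53 target, had 3 member regions, of 787, 226 and 154 bases. The widest had a ratio of 0.333, and the others had 0.583 and 0.614. The last of these is shared with 2210408F21Rik. Tug1, Rmrp and Crnde had a region near a coding start, and Miat, Lncenc1, Platr22 and Morrbid (Gm14005) were eligible without a region. In the immune group Mir155hg, Mirt1 and Ptgs2os2 were members, the last with 210 bases and a ratio of 0.659. Ifngas1, the neighbour of the interferon gamma gene, and Morrbid, known from myeloid cells, were eligible and had no region.

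The widest member regions were led by a locus that holds ribosomal RNA sequence. The region of Gm26917 on chromosome 17, from 39843115 to 39847067, was 3953 bases wide and the widest of all autosomal regions. That of AY036118, from 39847568 to 39848806, was 1239 bases wide. They overlapped Rn18s-rs5, annotated by RefSeq as a sequence related to 18S ribosomal RNA, by 714 and 635 bases. Ribosomal RNA genes are present in many copies in the cell, most of them outside the assembled chromosomes. How far reads from those copies contributed to these regions was not tested.

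The other widest members were Gm6410 with 1574 bases, 4932412D23Rik with 1400, E130102H24Rik with 1381, Gm19744 with 1267, Gm11399 with 1221, Gm17494 with 1209, Dleu2 with 1200 and Gm49454 with 1199. Of the 10 widest, Gm11399 and Gm49454 stood apart by composition. Their GC contents were 48.3% and 43.2% and their CpG ratios 0.127 and 0.448, whereas the ratios of the other 8 lay between 0.799 and 1.01. Gm11399 lies within Sfi1 on the opposite strand and its region overlaps a coding exon.

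At the high end of the CpG ratio, among members of at least 200 bases, were 6530409C15Rik with 1.12, Gm44698 with 1.11, Snhg5 with 1.10, Gm26656 (in a region shared with Gm44066) with 1.09 and Gm13421 with 1.09. At the low end of the same members, Gm28610, Gm14275, Gm12415, Gm44123 and 1700072G22Rik had no CpG at all in regions of 224 to 326 bases. The regions farthest from coding starts belonged to B230208B08Rik, 1190028D05Rik, AC154244.1, 2410018L13Rik and 3100003L05Rik. The region of B230208B08Rik, 1617669 bases from the nearest coding start of GENCODE, had a GC content of 76.8%, and a RefSeq mRNA of Ptprd starts 226 bases from its centre.

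This pointed to a limit of the annotation, since a gene can be typed as noncoding in the one catalogue and coding in another. A curated RefSeq mRNA started within 1000 bases of 23 members, or 3.07% (95% Wilson interval 2.05 to 4.56). With predicted RefSeq mRNAs the number was 53, or 7.07%. Among the 23 were Ifi30, Zswim6, Ptpmt1, Tctn2 and Trerf1, whose GENCODE transcripts at these starts belong to genes typed processed_transcript. The region of Ifi30, which encodes a thiol reductase of antigen processing, was 853 bases wide and that of Zswim6 was 1058. A RefSeq noncoding transcript started within 1000 bases of 419 members, or 55.9%, and no RefSeq transcript of either kind within 1000 bases of 299. The 53 members near a RefSeq mRNA start had a median width of 485 bases, the 398 near a noncoding start alone 235.5, and the 299 without one 246.

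Few members were mostly repeat. Soft-masked repeat sequence made up more than 50% of 22 members, or 2.93% (95% Wilson interval 1.94 to 4.40), compared with 0.493% at coding promoters and 3.86% in distal regions. In the 12732 other regions within 5000 bases of a start the share was 2.64%. The members' interval held this share and that of distal regions, so few mostly repeat regions is not a trait particular to the members. The mostly repeat share was 1.53% of the 458 regions found where overlap with the start replaced the window, and 1.57% of members of at least 200 bases. The median repeat content of the members was 2.26%. Multimapping reads had been removed. Whether this changed the number of regions in sequence that is present in several copies was not tested. Stretches of 31 bases that also occurred in another consensus region were found in 70 members, and made up more than 10% of 34 and more than 50% of 5. The latter were Platr9, Gm49700, 2410018L13Rik, AC132253.9 and the region of Gm21989 and Gm30124. They were named after their values had been seen.

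The number of members varied between chromosomes. They made up from 0.920% of the regions on chromosome 11 to 2.43% on chromosome 17, with a median of 1.31% over the 19 autosomes. Chromosome 17 had 60 members. Among eligible genes the share with a member region ran from 29 of 420 on chromosome 8, or 6.90% (95% Wilson interval 4.85 to 9.74), to 58 of 293 on chromosome 17, or 19.8% (15.6 to 24.7).

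Several members could serve the same gene. A single member region was found at 702 genes and 2 at 33 genes, among them Malat1, Dleu2 and Mir22hg, besides the 4 of Mir99ahg and the 3 of Lncpint. In the other direction, 25 regions lay at the starts of several lncRNA genes. Another consensus region lay within 2000 bases of 26.3% (23.2 to 29.5) of members, compared with 23.5% (22.7 to 24.3) at coding promoters and 18.5% (18.03 to 18.9) of distal regions. The share was higher at lncRNA promoters within 5000 bases of a coding start, at 39.6% (34.9 to 44.5). In the other regions within 5000 bases of a start it was 29.8% (29.0 to 30.6).

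The sequence of the members was searched for 16 short motifs in the central window of 300 bases, on both strands and as exact letters. The letters were CCGGAAG for ETS factors, a family that includes Elf3 and Ehf, CCACCC or GGGNGTGG for KLF factors such as Klf4, GGGCGG for the GC box and GCGCATGCG for NRF1. They were TGACGTCA for the cyclic AMP response element (CRE), AAGATGGCG for YY1, CCAATCA for NFY, TATAAA for the TATA box and ATGCAAAT for the octamer. CACGTG was used for the E-box, TGANTCA for AP-1, AACCGGTT for GRHL, TGTGGTTT for RUNX and GACGC for the core bound by FOXN1, the master regulator of thymic epithelium. CTCF and NF-kB were searched by their consensus. Matches to different motifs may share bases, and a match is a description of letters and does not show that a factor is bound.

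The GC box and the ETS, FOXN1 and KLF letters were more frequent in the members than in distal regions and less frequent than at coding promoters. The GC box was in 28.8% of members (95% Wilson interval 25.7 to 32.1), in 69.8% of coding promoter regions and in 10.4% of distal regions, and over all autosomal regions in 26.8%. ETS letters were in 7.47% of members (5.79 to 9.57), in 16.0% of coding promoter regions and in 2.13% of distal regions, and over all regions in 5.41%. The FOXN1 core was in 25.6% of members (22.6 to 28.8), 51.6% of coding promoter regions and 13.3% of distal regions, and over all regions in 24.1%. KLF letters were in 37.5% of members (34.1 to 41.0), 47.6% at coding promoters and 31.7% of distal regions, and over all regions in 36.4%. The members' intervals for the GC box, the FOXN1 core and KLF letters thus held the share over all regions. YY1 and NRF1 letters were each found in 4 members, or 0.533% (0.208 to 1.36), compared with 3.10% and 2.67% at coding promoters. Over all regions they were in 0.928% and 0.756%, shares that the members' interval held.

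Letters common in distal regions showed the opposite order. AP-1 was in 138 members, or 18.4% (15.8 to 21.3), compared with 5.60% of coding promoter regions, 29.2% of distal ones and 22.5% of all regions. NF-kB was in 10.5% (8.53 to 12.9), 7.21% and 16.8%, and in 14.1% of all regions. RUNX was in 2.93% (1.94 to 4.40), 0.900% and 3.801%, and also in 2.93% of all regions. The TATA letters were in 9.07% (7.21 to 11.3), 4.23% and 12.6%, and in 9.84% of all regions. CTCF was in 2.40% (1.52 to 3.76) of members, close to the 2.67% of distal regions and above the 0.232% of coding promoters. Over all regions it was in 2.06%, a share within that interval. By the shares alone, the members lay between both sets for 14 of 16 motifs. For NRF1, YY1, RUNX and CTCF letters the members' interval held the distal share, and for CRE and NFY letters the coding share. Octamer letters were in 1.87% (1.12 to 3.11) of members and in 2.20% of all regions. That interval held both the 1.39% of coding promoter regions and the 2.57% of distal regions. The E-box was in 9.87% (7.93 to 12.2) of members, 9.23% of coding promoter regions and 6.10% of distal regions, and in 6.92% of all regions. GRHL letters were in 3 members, or 0.400% (0.136 to 1.17). That interval holds the 0.213% and 0.221% of the other sets and the 0.227% of all regions. CRE letters were in 1.87%, 3.05% and 0.782%, and NFY letters in 8.13%, 9.51% and 4.17%, in the same order of sets. Over all regions CRE letters were in 1.30% and NFY letters in 5.13%.

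**Figure D5:**
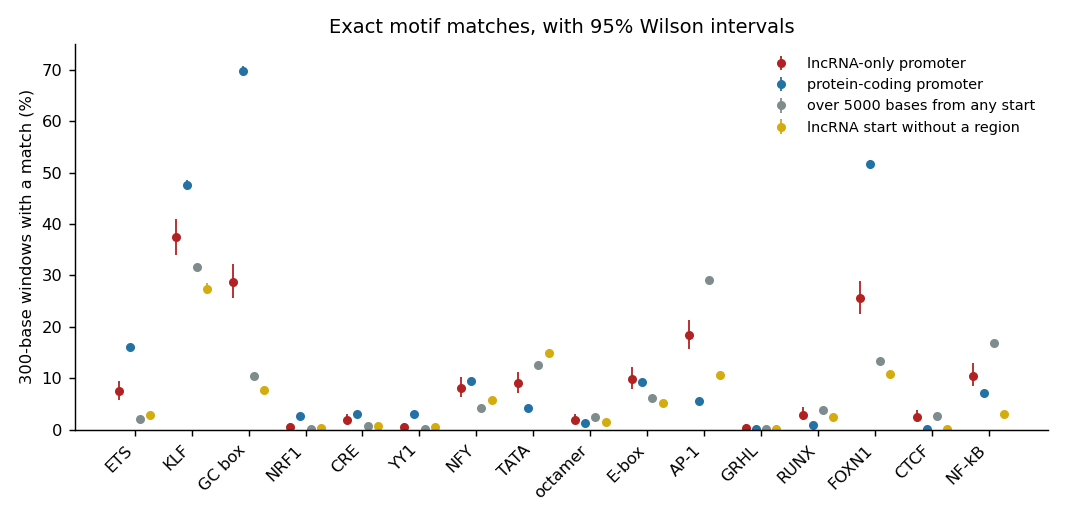
Share of 300-base windows with at least 1 exact match, in percent (y axis), for 16 motifs (x axis) in lncRNA-only promoter regions, coding promoter regions, distal regions and 6979 lncRNA starts without a region, with 95% Wilson intervals. The GC box, ETS and FOXN1 letters are highest at coding promoters, AP-1 and NF-kB letters in distal regions, and the members lie between.

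The same letters were set against the 6979 starts of lncRNA transcripts that lay more than 5000 bases from coding starts and had no region. These windows were centred on the start, whereas those of the members were centred on the region, a median of 120 bases upstream. The comparison thus mixes position with the presence of a region. There the GC box was in 7.81%, ETS letters in 2.97%, the FOXN1 core in 10.8%, AP-1 letters in 10.6%, NF-kB letters in 3.07% and CTCF letters in 0.0860%. The members were above each of these. TATA letters were the reverse, in 14.9% of the starts without a region and 9.07% of members.

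Members with CpG-rich and other windows carried different letters. In the 171 CpG-rich windows the GC box was in 71.3% (64.2 to 77.6), the FOXN1 core in 55.6% (48.1 to 62.8), ETS letters in 14.6% (10.1 to 20.7) and AP-1 letters in 4.09% (2.00 to 8.21). In the 579 other windows these shares were 16.2% (13.5 to 19.5), 16.8% (13.9 to 20.01), 5.35% (3.797 to 7.50) and 22.6% (19.4 to 26.2). CTCF letters were in 0 of the CpG-rich windows, where a floor of 3 counts, used in place of an interval for a count of 0, allows a share of up to 1.75%, and in 18 of the others, or 3.11%. NF-kB letters were in 5.26% of the former and 12.1% of the latter. KLF letters were in 42.1% (35.0 to 49.6) of the CpG-rich windows and 36.1% (32.3 to 40.1) of the others, intervals that overlapped. The GC box, the FOXN1 core and the ETS letters themselves contain CpG. How far CpG content accounts for the differences in these letters was not tested.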

How the data were processed

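ATAC-seq was performed by the authors on sorted mTECs of 8 samples. Reads were aligned to mm10 with Bowtie2, mitochondrial, multimapping and low-quality reads were removed with SAMtools, and duplicates with Picard. Broad peaks were called with MACS2, merged with bedtools, annotated with HOMER, and reads were assigned to the regions by featureCounts 2.0.3. The sources do not say whether samples were pooled before peak calling. Of the deposited values, of another unit than expression, those used were the chromosome, start, end and length in bases of each consensus region. The 8 columns of counts per sample were not used, since their names match no label. No test between groups was therefore made, and sequencing depth was not used. The peak caller and the merging set the width of a region.

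The centre of each region was set against the transcript starts of GENCODE M21 (basic set). No region ran past a chromosome end of the GRCm38 reference (0 regions), from which sequence and soft-masking were read, and RefSeq starts came from its annotation. Composition was computed over each region, and motifs in windows of 300 bases. Genes named were those of the lists, of the 10 widest members, of the 5 highest and 5 lowest CpG ratios at 200 bases or more, of the 5 farthest from coding starts, and those with 3 or more regions. Others, those at the edge of the rule, at RefSeq mRNA starts or with shared stretches, were named after their values were seen. Some sequences are not reported here. The members and lists were chosen with earlier results of these data known. The scripts were tested on simulated data. Tables were handled with pandas 2.3.3 and numpy 2.4.6 in Python 3.11.15, intervals came from scipy 1.17.1 and figures from matplotlib 3.10.9. Alternatives covered the window, the annotation set, the distance from coding starts, and the width, repeats and gene types.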

Additional observations from a re-analysis of the deposited data

How the results depend on the processing

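No paired analysis was possible because no result comes from a test and no read count has a labelled sample. Of 61 values recomputed under alternatives for 7 results, 41 moved by less than their interval (counts by less than 1.5 times) and 20 moved further. The cause was not tested, except that each alternative changes which regions are counted. Where a region had to overlap the start, there were 458 members, 0.819% of regions, at 7.01% of eligible genes, with a median width of 406 bases, a median GC content of 55.8%, a CpG-island-like share of 30.6% and a mostly repeat share of 1.53%. With regions of at least 200 bases only, there were 445 members, 1.51% of regions, at 6.65% of eligible genes, with a width of 398 bases, a GC content of 55.1%, and shares of 31.01% and 1.57%. A window from 500 bases upstream to 500 downstream gave 1.46% of regions and 12.2% of eligible genes. The share of regions was 1.47% with coding starts over 2000 bases away, 1.18% with 10000, and 0.900% with lincRNA genes alone. With RefSeq mRNA starts also over 5000 bases away, an alternative chosen after seeing the data, 683 members remained, at 9.94% of eligible genes. Depth could not be assessed, and an absent region does not show that a promoter is closed in every cell.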
